A study of Homo sapiens with 4 samples.

Results

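The RNAs of 9 genes that antagonise WNT signalling (FRZB, SFRP1, SFRP2, WIF1, DKK1, DKK2, DKK3, KREMEN1 and DACT1) were compared between HGC-27 control and HGC-27 RUNX3 KO cells. The genes were chosen by symbol, and all 9 were among the 25559 gene symbols counted in each library. HGC-27 is a human gastric carcinoma line derived from a lymph node metastasis. The data were RNA-seq counts of 2 control and 2 RUNX3 KO libraries, and the comparison asks which RNAs differ once the transcription factor RUNX3 is disrupted. The knockout was made with a lentiviral Cas9 and a guide RNA to a coding exon of RUNX3, puromycin selection and single-cell cloning. The sources used here do not give the number of clones, the treatment of the control cells with vector or drug, or whether the libraries of a group came from separate cultures, so a change shared by both RUNX3 KO libraries may belong to a clone, and p-values measure only the spread between these libraries.

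WNT ligands are secreted lipid-modified proteins that bind a frizzled receptor together with LRP5 or LRP6, and in the canonical branch this keeps β-catenin from degradation and lets it act with TCF/LEF factors. Antagonists act at different points of this route. FRZB, the SFRP proteins and WIF1 are secreted and bind WNT ligands. DKK1 and DKK2 are secreted and bind LRP5 and LRP6, DKK3 is a divergent member of the same family, and KREMEN1 is a transmembrane receptor for DKK proteins that helps to remove LRP6 from the surface. DACT1 is a cytoplasmic protein that binds Dishevelled, so it is neither secreted nor on the surface. Several antagonists, DKK1 among them, are themselves known to be induced by canonical WNT signalling, which plays a large part in the epithelium of the gut.

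Promoter sequences are shown for the called members that have one in the table used, namely FRZB, which was higher in RUNX3 KO, and DKK1 and DACT1, which were lower. They are the 250 bases before an annotated start in RefSeq (GRCh38.p14), read 5′ to 3′ on the gene's strand, and a RefSeq promoter was given for 5 of the 9 genes. Capitals mark TGTGGT or TGCGGT, the core that RUNX factors bind, and CTTTGA, the core that TCF/LEF factors bind, on either strand. The FRZB window (first sequence, chr2:182866638-182866887, minus strand) held neither motif. The DKK1 window (second sequence, chr10:52314031-52314280, plus strand) held the TCF letters at 149 bases before the start as TCAAAG and at 95 bases as CTTTGA. DACT1 has 3 starts in the table, and only the one that lies 3901 bases from the start of the main transcript had matches (last sequence, chr14:58633811-58634060, plus strand), the RUNX letters at 183 bases as ACCACA and the TCF letters at 214 bases. Of 35116 promoters of 27305 genes, 16.3% held the RUNX letters and 11.2% the TCF letters in a window of this length, and a match describes letters, not binding.
FRZB: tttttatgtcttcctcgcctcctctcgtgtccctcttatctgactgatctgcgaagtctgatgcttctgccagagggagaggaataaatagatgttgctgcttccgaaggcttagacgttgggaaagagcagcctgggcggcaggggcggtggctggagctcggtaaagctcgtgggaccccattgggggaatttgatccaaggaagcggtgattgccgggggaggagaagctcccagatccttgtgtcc
DKK1: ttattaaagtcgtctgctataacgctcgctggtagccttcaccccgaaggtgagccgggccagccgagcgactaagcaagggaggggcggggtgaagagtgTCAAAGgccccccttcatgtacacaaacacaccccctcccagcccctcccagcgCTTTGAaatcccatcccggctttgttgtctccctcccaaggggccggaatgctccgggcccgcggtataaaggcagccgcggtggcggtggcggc
DACT1: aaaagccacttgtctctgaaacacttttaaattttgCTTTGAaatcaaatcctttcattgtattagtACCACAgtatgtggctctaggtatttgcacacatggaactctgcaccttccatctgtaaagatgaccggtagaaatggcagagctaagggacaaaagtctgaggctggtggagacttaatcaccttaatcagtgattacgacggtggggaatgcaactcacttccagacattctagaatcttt

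The libraries held 11731401 and 11733407 gene counts in control and 11898276 and 12110876 in RUNX3 KO. RUNX3 itself had 351 and 308 counts in control against 225 and 185 in RUNX3 KO, a log2 fold change of -0.70 (SE 0.0961, edgeR quasi-likelihood adjusted p = 1.43e-09). The edited gene's RNA was thus lower but still present in these counts. The study also measured RUNX3 mRNA by RT-qPCR and reports that the deletion was seen in both mRNA and protein. Counts do not measure RUNX3 protein, which the study assessed separately by immunoblot. Without RUNX3 KO replicate 2 the RUNX3 change was -0.55 with an adjusted p of 0.0649. Of the markers of gastric mucosa (MUC5AC, MUC6, TFF1, TFF2, GKN1, CLDN18 and PGC), 6 of 7 were at 0 in all libraries and the list summed to at most 0.0846 CPM (counts scaled to a common library size), so the gastric origin in the label could not be seen in these RNAs. Epithelial markers summed to 4.74 and 4.32 CPM in control and 12.2 and 12.6 CPM in RUNX3 KO (5 of 7 above 3 counts in some library), with KRT19 at 0 throughout. Fibroblast-type markers summed to 349 and 347 CPM in control and 250 and 243 CPM in RUNX3 KO, with 5 of 5 expressed. The part of these shifts in the antagonist results was not tested, and in bulk RNA fewer cells with a transcript cannot be told apart from less of it per cell. Haematopoietic markers stayed between 1.25 and 2.46 CPM and endothelial markers at or below 0.339 CPM.

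Among the 9 antagonists, FRZB was the one whose RNA rose in RUNX3 KO cells, while DKK1, KREMEN1 and DACT1 fell. A total of 6 members passed the filter on low counts and were tested among 12967 genes, with p-values adjusted over all of them. At an adjusted p under 0.05, 3 members were lower and 1 was higher, 2 (SFRP1 and DKK3) were not called, and SFRP2, DKK2 and WIF1 had too few counts to test. By the same rule 24.4% of all tested genes were lower and 24.5% higher, so calls were common throughout the transcriptome. When a change of 2-fold or more was required together with an unadjusted p no higher than 0.05, DACT1 was the only member lower and FRZB the only one higher, where 4.01% of tested genes were lower and 2.11% higher. The median log2 fold change was -0.58 over the 6 tested members and -0.0021 over all tested genes.

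**Figure D1:**
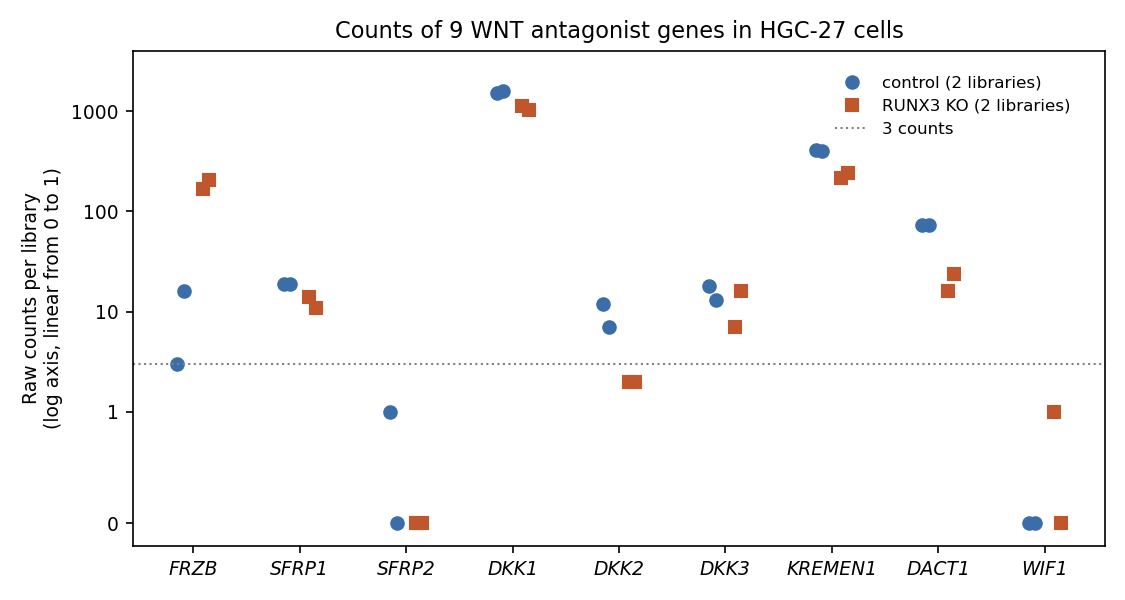
Raw counts of each of the 9 genes per library, on an axis that is logarithmic above 1 and linear from 0 to 1, with control libraries as circles, RUNX3 KO libraries as squares and 3 counts as a dotted line. FRZB lies at 3 and 16 counts in control and at 168 and 208 in RUNX3 KO, whereas DKK1, KREMEN1, DACT1 and the thinly counted DKK2 lie lower in both RUNX3 KO libraries.

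Among the secreted proteins that bind WNT, FRZB (chr2:183698002-183731365 in GRCh37, minus strand, 6 exons) had 3 and 16 counts in control and 168 and 208 counts in RUNX3 KO. Its level was 0.804 ± 0.778 CPM (SD, n = 2) in control and 15.8 ± 2.17 CPM in RUNX3 KO. Both RUNX3 KO libraries lay far above both control libraries, and every pairing of a RUNX3 KO with a control library gave a log2 ratio between 3.39 and 6.09. The fitted change was 4.28 on the log2 scale (SE 0.234, 95% interval 3.81 to 4.74, adjusted p = 1.61e-29), or 19.4-fold higher, placing FRZB 12th by fold among 6438 genes with a positive change. The size rests on a thin control level. The exact Poisson intervals of the control counts, 0.619 to 8.77 and 9.15 to 26.0, do not overlap, and the log2 change was 3.53 without control replicate 1 and 5.90 without control replicate 2.

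SFRP1 (chr8:41119481-41166992, minus strand), a paralog of FRZB, had 19 and 19 counts in control and 14 and 11 in RUNX3 KO. The RUNX3 KO libraries were both lower, but its log2 fold change of -0.61 (SE 0.357, 95% interval -1.32 to 0.10) did not pass the test (adjusted p = 0.156). SFRP2 (chr4:154701743-154710235, minus strand) had 1 count in control replicate 1 and 0 in the other libraries. WIF1 (chr12:65444406-65515085, minus strand), which holds the WIF domain, had 1 count in RUNX3 KO replicate 1 and 0 elsewhere. The exact 95% Poisson interval reaches 5.57 counts for a library with 1 count and 3.69 counts for a library with 0, so lower levels of SFRP2 and WIF1 were not detectable at this depth, and these intervals cover counting error only.

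Among the DKK proteins, DKK1 (chr10:54074041-54077802, plus strand, 4 exons) had 1530 and 1574 counts in control and 1119 and 1037 in RUNX3 KO. This was 131 ± 2.67 CPM (SD, n = 2) in control and 90.5 ± 6.04 CPM in RUNX3 KO, and the groups did not overlap. The log2 fold change of -0.54 (SE 0.0447, 95% interval -0.63 to -0.45, adjusted p = 8.83e-19) amounts to a level 1.45-fold lower in RUNX3 KO. DKK1 was called in each of 12 alternatives, at log2 changes between -0.61 and -0.47. It shares 227 exonic bases with the antisense PRKG1-AS1, whose reads cannot be told apart from those of DKK1 if strand was not used in counting.

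DKK2 (chr4:107842959-108204963, minus strand), which also binds LRP6, had 12 and 7 counts in control and 2 and 2 in RUNX3 KO. Both RUNX3 KO libraries were below both control libraries, all at low counts, and the gene did not pass the filter. The ratio of the summed counts, scaled for library size, was 4.79 in favour of control, with a 95% counting interval of 1.59 to 19.4 that leaves out any spread between cultures. Fitted without a filter, its log2 change was -2.19 (SE 0.586, adjusted p = 0.0442).

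DKK3 (chr11:11977754-12031316, minus strand, 7 exons) had 18 and 13 counts in control and 7 and 16 in RUNX3 KO. Here the groups overlapped, and the log2 fold change of -0.44 (SE 0.39, 95% interval -1.22 to 0.34, adjusted p = 0.366) turned to 0.02 without RUNX3 KO replicate 1. Its annotated exons share 5681 of their 11958 bases with USP47, a deubiquitinase gene on the opposite strand. If strand was not used in counting, reads in the shared bases cannot be assigned to DKK3 alone, which would touch its counts and its level per length.

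The DKK receptor gene KREMEN1 (chr22:29469023-29564321, plus strand, 9 exons) had 406 and 396 counts in control and 215 and 244 in RUNX3 KO. Its level was 33.9 ± 0.589 CPM (SD, n = 2) in control and 19.2 ± 1.47 CPM in RUNX3 KO, without overlap. The log2 fold change was -0.82 (SE 0.0865, 95% interval -0.99 to -0.65, adjusted p = 8.43e-14), or 1.76-fold lower. Inside the cell, the Dishevelled-binding DACT1 (chr14:59100685-59115039, plus strand, 4 exons) had 73 and 73 counts in control and 16 and 24 in RUNX3 KO. Its level was 6.18 CPM in both control libraries and 1.67 ± 0.453 CPM (SD, n = 2) in RUNX3 KO. Its fall was the deepest of the called members, with a log2 fold change of -1.87 (SE 0.235, 95% interval -2.34 to -1.41, adjusted p = 6.32e-11), or 3.67-fold lower. DACT1 shares 378 exonic bases with LINC01500 on the same strand. Over the 6 tested members, the RUNX3 KO libraries both lay below both control libraries for 4 (SFRP1, DKK1, KREMEN1 and DACT1), above them for FRZB, and overlapped for DKK3. Over all tested genes 36.4% were lower and 36.3% higher in this way, and 2 libraries against 2 cannot give an exact permutation p under 0.333.

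Ordered by level per length of exon (RPKM), DKK1 was the most abundant member in both cell types, at 59.1 ± 1.20 RPKM (SD, n = 2) in control and 40.7 ± 2.72 RPKM in RUNX3 KO. In control it was followed by KREMEN1 at 4.23 ± 0.0734 RPKM and DACT1 at 1.35 RPKM. SFRP1 at 0.340 RPKM and FRZB at 0.305 ± 0.295 RPKM came next by their means, before DKK2 at 0.185 RPKM and DKK3 at 0.110 RPKM. FRZB, at 0.0963 and 0.514 RPKM in the control libraries, did not differ from SFRP1, DKK2 or DKK3 beyond its spread. In RUNX3 KO, FRZB at 5.97 ± 0.822 RPKM stood second, above KREMEN1 at 2.40 ± 0.183 RPKM and DACT1 at 0.365 ± 0.0988 RPKM. SFRP1 at 0.222 RPKM followed, with DKK3 at 0.0804 RPKM and DKK2 at 0.0387 RPKM after it. Levels of DKK3 and DKK2 rest on 2 to 18 counts per library, and their order is not resolved by these counts.

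The summed level of the 9 genes was 64.8 and 66.6 RPKM in control and 51.0 and 48.7 RPKM in RUNX3 KO. DKK1 made up 90.0% and 90.1% of that sum in control and 83.6% and 79.7% in RUNX3 KO. The share of FRZB went from 0.149% and 0.771% to 10.6% and 13.5%, while that of KREMEN1 was 6.61% and 6.28% against 4.45% and 5.20%. Per length, the ratio of DKK1 to FRZB RNA was 606 in control replicate 1, where FRZB had 3 counts (95% counting interval 207 to 2940), and 117 in control replicate 2 (71.7 to 205). In the RUNX3 KO libraries it was 7.91 and 5.92. The fall of DKK1 and the rise of FRZB both enter this ratio, and FRZB accounts for most of its shift.

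**Figure D2:**
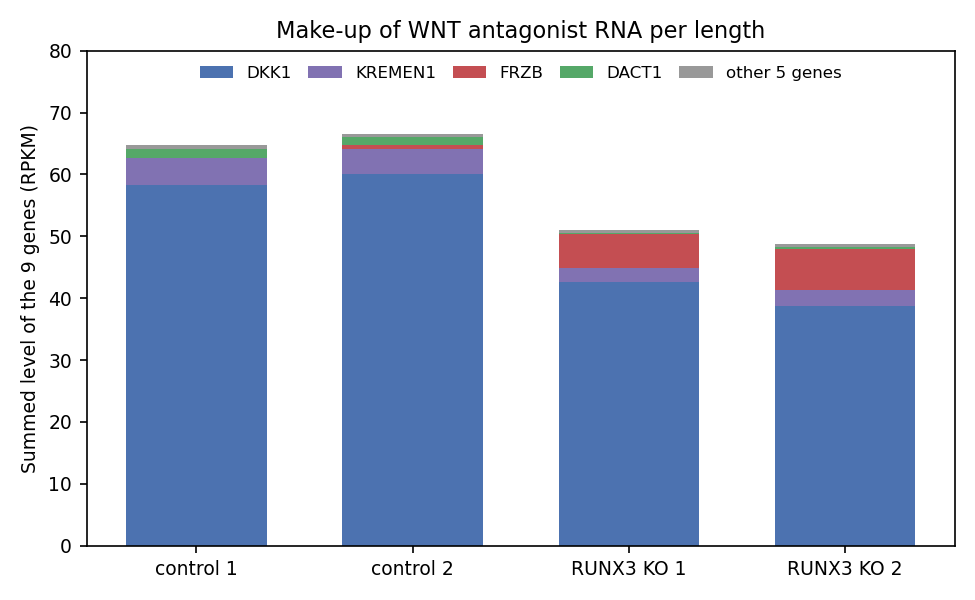
Summed level of the 9 genes in RPKM for each of the 4 libraries, with each bar divided by gene and the 5 least abundant genes (SFRP1, SFRP2, DKK2, DKK3 and WIF1) drawn together. The bars reach 64.8 and 66.6 RPKM in control and 51.0 and 48.7 RPKM in RUNX3 KO, DKK1 fills most of each, and a band of FRZB is wide only in RUNX3 KO.

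Other listed antagonists were examined beside the 9 genes. Of 20 counted genes on this list, 12 were tested, and 7 were lower, 3 higher and 2 not called, with a median log2 fold change of -0.48. By the same rule 24.4% of all tested genes were lower and 24.5% higher. Without RUNX3 KO replicate 2, calls in both directions were fewer on this list and over the whole table. SFRP4, a further paralog of FRZB, had 298 and 318 counts in control and 90 and 104 in RUNX3 KO, a log2 change of -1.68 (SE 0.113, adjusted p = 7.42e-24). FRZB and SFRP4 thus changed in opposite directions. The same held for the KREMEN pair, as KREMEN2 had 224 and 212 counts in control and 328 and 375 in RUNX3 KO, a log2 change of 0.68 (SE 0.0910, adjusted p = 6.80e-10), against -0.82 for KREMEN1. DACT3 followed DACT1 downward, from 67 and 66 to 38 and 25 counts (-1.09, SE 0.217, adjusted p = 1.38e-05), although without RUNX3 KO replicate 2 its change was -0.81 with an adjusted p of 0.0525. The directions of SFRP4, KREMEN2 and DACT3 held under each of the scalings tried.

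APCDD1, a membrane glycoprotein that inhibits WNT signalling at the surface, had 1538 and 1453 counts in control and 378 and 349 in RUNX3 KO (log2 change -2.05, SE 0.0572, adjusted p = 6.10e-51). SOST, which encodes the LRP-binding sclerostin, had 34 and 22 counts in control and 2 and 1 in RUNX3 KO, a ratio of summed counts of 18.8 in favour of control (95% counting interval 6.12 to 94.1). The fitted log2 change of SOST was -4.13 (SE 0.534, adjusted p = 1.86e-10), and its adjusted p, to these digits, was 0.05 without RUNX3 KO replicate 2. Smaller falls were measured for IGFBP4 (-0.57), the frizzled-removing ubiquitin ligase ZNRF3 (-0.40) and the WNT-delipidating enzyme NOTUM (-0.18, adjusted p = 0.0319, not called in 6 of 12 alternatives). ZNRF3 was not called without RUNX3 KO replicate 1 (adjusted p = 0.0612) or without RUNX3 KO replicate 2 (adjusted p = 0.0508). The sclerostin relative SOSTDC1 rose by 0.68 and TPBG, a surface glycoprotein, by 0.50 on the log2 scale. SOSTDC1 did not pass the test without RUNX3 KO replicate 1 (adjusted p = 0.0572), without RUNX3 KO replicate 2 (adjusted p = 0.0611) or with DESeq2 (adjusted p = 0.0652), and TPBG did not pass without RUNX3 KO replicate 2 (adjusted p = 0.0503). SHISA3 (0.51, adjusted p = 0.0597) and RNF43 (-0.67, adjusted p = 0.12) were not called. DKKL1 had at most 4 counts, TRABD2A at most 6 and DRAXIN at most 9 in any library.

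**Figure D3:**
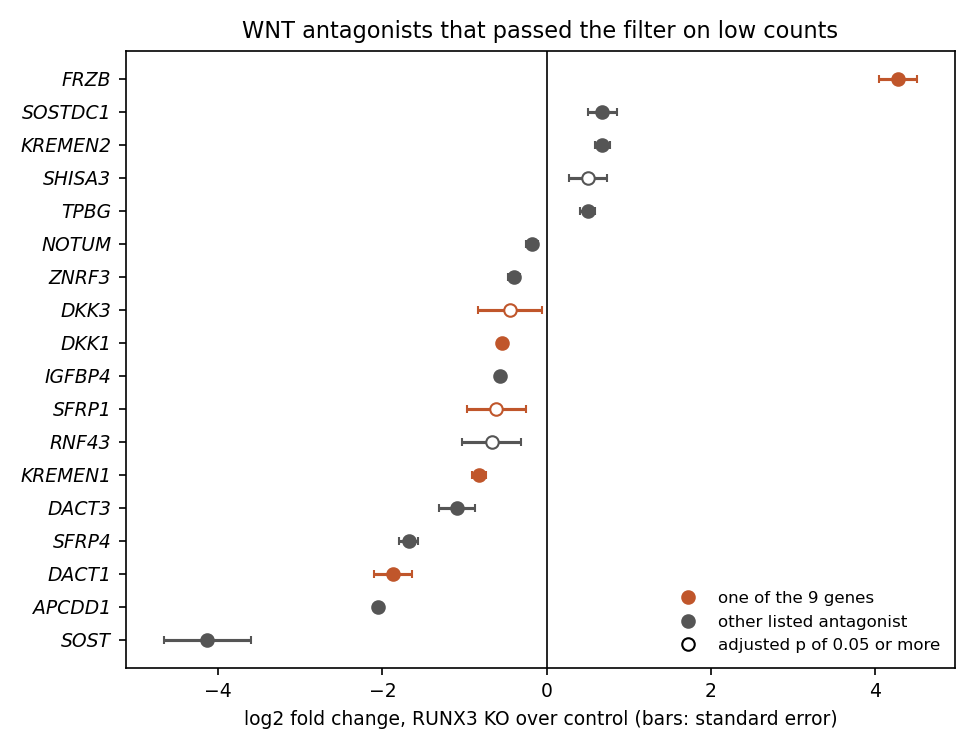
Log2 fold change of RUNX3 KO over control, with its standard error, for the 6 tested members and the 12 other tested antagonists, where open symbols did not reach an adjusted p under 0.05. FRZB at 4.28 and SOST at -4.13 (fitted on 2 and 1 counts in RUNX3 KO) lie farthest from 0 on either side, DACT1 at -1.87 lies beside SFRP4 and APCDD1, and KREMEN1 and KREMEN2 lie on opposite sides of 0.

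The chromosomal neighbours of each gene were then compared with it, taking the 40 nearest tested genes. None of the 40 around FRZB rose as far (median log2 change 0.12), although 16 were called higher against 4 lower. Its nearest neighbours DNAJC10, which encodes an endoplasmic reticulum reductase, and NCKAP1, which encodes a WAVE complex subunit, changed by -0.01 and 0.30. The largest rises among the 40 were those of CALCRL (2.70) and PDE1A (2.61), while 12 of the 40 had a negative change. None of the 40 around DACT1 fell as far, although 34 of 40 had a negative change (median -0.17), including the adjacent DAAM1, a Dishevelled-binding formin gene, at -1.06 and KIAA0586 at -0.46. KREMEN1 differed from both. Of its 40 neighbours on chromosome 22, 39 had a negative change, 35 were called lower and 11 fell at least as far as KREMEN1, with a median of -0.55. Relative to this median KREMEN1 was lower by -0.26 on the log2 scale. The nearest genes on either side were ZNRF3, itself one of the antagonists, at -0.40, and EMID1 at -0.97.

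Around DKK1 the median was 0.13, and 14 of 40 neighbours were called higher against 5 lower, so that relative to its neighbourhood DKK1 was lower by -0.67. CSTF2T next to it changed by 0.02 and the protocadherin gene PCDH15, at 4 and 3 counts in control and 57 and 71 in RUNX3 KO, by 4.13 (SE 0.362). SFRP1 and DKK3 lay in regions with medians of -0.02 and 0.02. The nearest genes were ADAM9 (0.07) and SNORD65 (-0.28) for SFRP1, and USP47 (0.05) and MICAL2 (0.44) for DKK3. Among the untested members, RNF175 beside SFRP2 had 23 and 24 counts in control and 1 and 2 in RUNX3 KO (ratio of summed counts 15.8 in favour of control, 95% counting interval 5.09 to 79.4). The other nearest genes were DCHS2 (-2.55) for SFRP2, AIMP1 (0.22) and PAPSS1 (-0.20) for DKK2, and TBC1D30 (0.71) and LEMD3 (-0.02) for WIF1. Copy number was not measured in these libraries, and its part in these values was not tested.

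**Figure D4:**
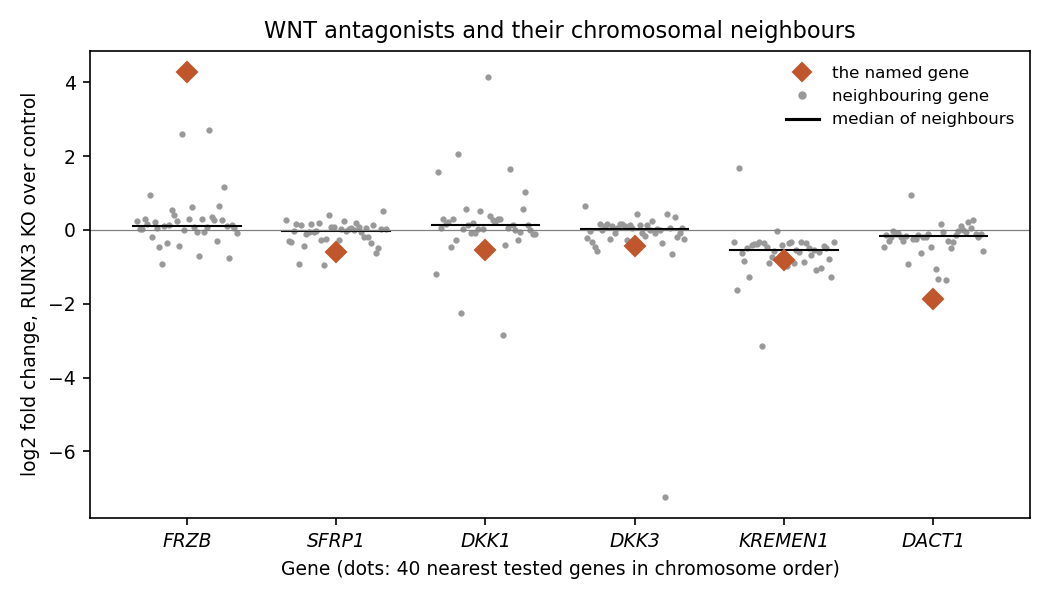
Log2 fold change of RUNX3 KO over control for the 6 tested members (diamonds) and the 40 nearest tested genes of each in chromosome order (dots), with the median of the neighbours as a bar. FRZB and DACT1 stand beyond all their neighbours in their direction, whereas KREMEN1 lies within a run of genes whose median is -0.55.

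The rest of the WNT route was described from 6 further lists. Of 13 tested canonical target genes, 8 were lower and 1 was higher, with a median log2 change of -0.40. Of all tested genes 24.4% were lower and 24.5% higher by the same rule. Fewer targets, and fewer genes over the whole table, were lower when RUNX3 KO replicate 1 or 2 was left out. EPHB2 (-1.67) and NKD1 (-1.10) fell most, and TNFRSF19 was the target that rose (1.51). NKD1 is at the same time a Dishevelled-binding inhibitor, and in the list of intracellular inhibitors 5 of 15 were lower and 4 higher, led by NKD1 and AXIN2 (-0.87) among the falls and by AXIN1 (0.29) and AMER1 (0.27) among the rises. Lower inhibitors numbered 3 with DESeq2, without control replicate 1 and without either RUNX3 KO replicate, and higher ones 2 with DESeq2, 2 without RUNX3 KO replicate 1 and 1 without RUNX3 KO replicate 2. Counts of MYC and CCND1, by contrast, gave changes of -0.01 and 0.01 that did not pass the test, and CTNNB1, which encodes β-catenin, gave 0.01 (SE 0.0351, adjusted p = 0.887); these 3 genes were singled out after their values were seen.

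Among 9 tested WNT ligands 4 were lower and 3 higher. WNT4 (-2.95) and WNT6 (-2.20) fell most and WNT2B (2.75) and WNT9A (1.14) rose most, all at 55 counts or fewer in every library. With at least 10 counts asked for in every library, 1 ligand was lower and 1 higher. Of the receptors, 3 of 14 were lower and 4 higher and a median of 0.10, and the largest called falls were those of PTK7 (-0.91) and FZD1 (-0.71) and the largest called rises those of ROR1 (0.73) and FZD6 (0.32). The higher receptors numbered 1 with DESeq2, 2 with no filter, 2 without RUNX3 KO replicate 1 and 1 without RUNX3 KO replicate 2, while the lower ones numbered 3 in each of these. Of the agonist and secretion genes, 2 of 4 were lower, the O-acyltransferase gene PORCN (-1.14) and the R-spondin receptor gene LGR4 (-0.81), and RSPO4 was higher, with 3 and 2 counts in control against 13 and 13 (ratio of summed counts 5.15, 95% counting interval 1.95 to 17.2). In that list 1 gene was lower with DESeq2, without control replicate 1 and without either RUNX3 KO replicate, and 0 were higher with DESeq2, without RUNX3 KO replicate 2 or with at least 10 counts in every library. Of the transducers and TCF/LEF factors, 3 of 11 were lower and 2 higher, and the largest called falls were those of TCF7L2 (-0.58) and BCL9L (-0.27, with LEF1 at -0.27 to these digits) and the called rises those of DVL1 (0.30) and DVL3 (0.23), of which 0 were called without RUNX3 KO replicate 1. Over all 7 lists, of which some share genes, 27 of 71 tested genes were lower and 18 higher, with a median of -0.08. By the same rule 24.4% of all tested genes were lower and 24.5% higher. These are the shares to set beside the counts of each list. With DESeq2, 21 were lower and 10 higher, where 1863 and 1829 of 12967 genes were lower and higher over the whole table. Calls in both directions were also fewer when RUNX3 KO replicate 1 or 2 was left out, as they were over the whole table.

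**Figure D5:**
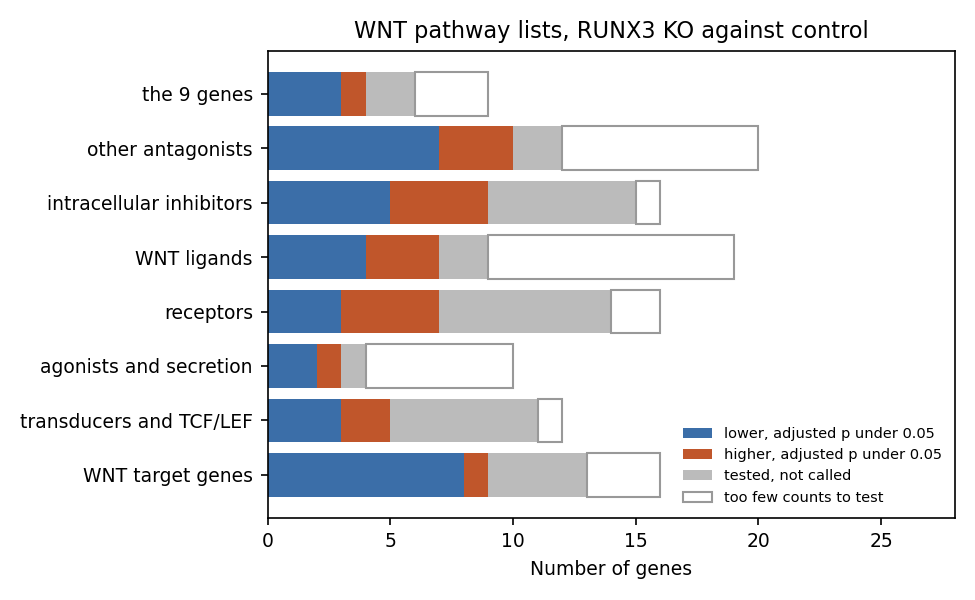
Number of genes in the 9-gene set and in each of the 7 WNT lists that were lower, higher or not called in RUNX3 KO at an adjusted p under 0.05, with genes of too few counts as open bars. By difference in number, lower calls outnumber higher ones most in the target genes (8 against 1) and the other antagonists (7 against 3). Both lists have fewer lower calls when a RUNX3 KO library is left out. Of all tested genes 24.4% were lower and 24.5% higher.

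FAM110B and LINGO2 were among the genes whose pattern over the 4 libraries was most like that of FRZB, with root mean square differences of 0.504 and 0.541 between gene-centred log2 CPM values. FAM110B had 3 and 10 counts in control and 72 and 88 in RUNX3 KO. LINGO2, which encodes a leucine-rich repeat membrane protein, had 5 and 9 counts in control and 103 and 114 in RUNX3 KO. Both shared low control counts with FRZB, and with 4 libraries the likeness describes little more than the step between the 2 groups.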

How the data were processed

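RNA-seq counts per gene symbol were deposited by the authors, 1 table for each of the 4 libraries, without normalisation. The paper's methods name STAR, featureCounts and GENCODE on hg19, whereas the submitters' processing notes list HISAT2 2.1.0, HTSeq and hg19, so which tools made the counts is unsettled. The labels name a stranded poly(A) kit, and the strand setting of counting is not given in the sources used here. The 5 rows that name no gene (25.9% to 28.1% of reads) were left out.

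Groups and replicate numbers were taken from the sample titles. Genes were filtered with filterByExpr (at least 10 counts at the median depth), scaled by TMM and tested with edgeR 4.0.16 (glmQLFit and glmQLFTest, R 4.3.3), with Benjamini-Hochberg adjustment over 12967 genes. CPM used the TMM-scaled library sizes. RPKM used the merged exon length in GENCODE release 44 on GRCh37. On simulated counts with the same spread for every gene, 183 of 197 changed genes were recovered, with 5 false calls over 12925 genes. The simulation held far fewer changed genes than were called here and no difference between clones, so it does not check for clone effects. Replicates differed by only a little more than counting noise (chi-square per degree of freedom 1.22 in control and 1.18 in RUNX3 KO). The fitted coefficient of variation between replicates, beyond counting, was 1.45%. The standard errors and p-values of the tests rest on this small spread. RLE, upper-quartile and library-size scaling, DESeq2 1.42.0, limma-voom (limma 3.58.1), other filters, a replicate block and leaving out each library were the alternatives. One gene of the other antagonists, TRABD2B, was not analysed here.

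The members and gene lists were chosen with earlier results of these data known. Named genes are the 9 members, RUNX3, other antagonists with more than 3 counts in a library, the 2 largest called falls and rises of each further list, the 3 genes most like the member with the smallest adjusted p (1 of them is not reported here), and the nearest tested gene on each side of a member. Cell type markers and genes that overlap a member are named besides. MYC, CCND1, CTNNB1, LEF1, CALCRL and PDE1A were named after their values were seen.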

Additional observations from a re-analysis of the deposited data

How the results depend on the processing

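DKK1, KREMEN1, DACT1 and FRZB were called in the same direction by every alternative in which they were tested, with adjusted p-values up to 0.0217, 0.0195, 0.0214 and 0.0268. SFRP1 was called in none of 12 alternatives and DKK3 in none of 11. A fit that leaves out 1 library has 1 sample in that group and takes its spread from the other group alone, so its p-values assume that the lone library varies like the other group. Leaving out 1 library at a time, the log2 change of DKK3 ranged from -1.13 to 0.02 and that of RUNX3 from -0.86 to -0.55, and the number of higher genes over the 7 WNT lists ranged from 8 to 18. That number was 10 with DESeq2, against 18. With at least 10 counts asked for in every library, 0 members were higher, because FRZB with 3 counts in control replicate 1 was no longer tested. With the neighbourhood median subtracted, DKK1 was at -0.67 and KREMEN1 at -0.26. DKK2 was tested only with no filter or without a library other than control replicate 1, and was called with no filter and without control replicate 2, where 4 members were lower. The count of lower genes over the whole table was 3158, and 1863 with DESeq2, 1531 without RUNX3 KO replicate 1 and 1378 without RUNX3 KO replicate 2. Higher genes numbered 3183, 1829, 1483 and 1285. The cause of these differences was not tested. Upper-quartile scaling gave 3441 lower and 2859 higher genes, and library size alone 3444 and 2877.

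The libraries carry the numbers 1 and 2 in both groups, and the sources used here do not say whether these numbers pair them. Deviations of same-numbered libraries did not correlate (r = -0.00366 over 10869 genes). Such deviations were largely counting noise, so this cannot show whether the libraries were handled in pairs. With the replicate block FRZB changed by 4.27, 3143 genes were lower and 3143 higher, and no member's call changed. SFRP2 and WIF1, at 0 or 1 count per library, give no comparison at this depth.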
